A study of Mus musculus with 16 samples.

Results

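The 33 genes described here encode the enzymes that carry glucose carbon through glycolysis, the pyruvate dehydrogenase complex and the tricarboxylic acid (TCA) cycle. They were taken as a list of gene symbols rather than by a threshold on measured values, and all 33 were found in the table of 13015 genes. The question was how mRNAs of cytosolic enzymes and of nuclear-encoded mitochondrial enzymes are divided between protrusions (Ps) and cell bodies (CB) of migrating fibroblasts, and whether their levels differ when Apc, an RNA-transport component and tumour suppressor, is depleted. NIH/3T3 mouse fibroblasts, an established embryonic cell line, were transfected with control siRNAs (siControl) or siRNAs against Apc (siAPC). In all groups, serum-starved cells spread for 2 h on filters with 3.0 µm pores, received lysophosphatidic acid (LPA) in the lower chamber for 1 h, and fixation was brief (10 min, 0.3% paraformaldehyde). Ps were then scraped from the lower and CB from the upper side, and stranded total RNA libraries were sequenced for the 4 combinations of siRNA and fraction, with 4 libraries each and 16 in all. The material is therefore 1 cell line, mechanically fractionated, with transient knockdown, and a higher value in Ps is a higher level relative to the effective library size of that fraction, which is not in every case a larger share of its listed reads. Fewer cells and less RNA per cell cannot be told apart in such pooled extracts. The study's methods call the replicates independent, whereas the labels do not say whether equal replicate numbers share a culture, so p-values measure the spread between these libraries.

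In glycolysis, soluble cytosolic enzymes split glucose into pyruvate and form ATP and NADH, and lactate dehydrogenase converts pyruvate to lactate when NADH has to be reoxidized. Pyruvate otherwise enters mitochondria, where the pyruvate dehydrogenase complex makes acetyl-CoA and the TCA cycle oxidizes it. The mitochondrial enzymes of these routes are encoded in the nucleus, so their mRNAs are translated in the cytoplasm or at the mitochondrial surface and the proteins imported. Proliferating fibroblasts in culture typically use glycolysis heavily, and many glycolytic genes are classical targets of hypoxia-inducible factor (HIF), which binds sites with the core letters ACGTG.

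By compartment, 16 members were counted as cytosolic (Hk1, Hk2, Gpi1, Pfkl, Pfkm, Pfkp, Aldoa, Aldoc, Tpi1, Gapdh, Pgk1, Pgam1, Eno1, Pkm, Ldha and Ldhb) and 16 as mitochondrial (Pdk1, Pdha1, Pdhb, Dlat, Dld, Cs, Idh3a, Idh3b, Idh3g, Ogdh, Dlst, Sucla2, Suclg1, Suclg2, Fh1 and Mdh2). Mdh1, the cytosolic malate dehydrogenase, belongs to neither pathway proper and is given by itself. In the mouse annotation (GRCm38, GENCODE M21) all 33 are protein-coding genes, spread over 15 chromosomes.

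For the 4 members that passed the test between siAPC and siControl in both fractions (below), Pgk1 (phosphoglycerate kinase, chrX:106187100-106203699), Hk2 (hexokinase 2, chr6:82725025-82774454), Pdk1 (pyruvate dehydrogenase kinase 1, chr2:71873224-71903858) and Suclg2 (GDP-forming succinyl-CoA ligase, chr6:95473009-95718800), the 150 bases before a RefSeq start site are shown 5′ to 3′ (GRCm38.p6). The windows are chrX:106186950-106187099 on the plus strand for Pgk1, chr6:82774455-82774604 on the minus strand for Hk2, chr2:71873074-71873223 on the plus strand for Pdk1, the first of its 2 start sites, and chr6:95718847-95718996 on the minus strand for Suclg2. Capitals mark ACGTG or its reverse complement CACGT.
Pgk1: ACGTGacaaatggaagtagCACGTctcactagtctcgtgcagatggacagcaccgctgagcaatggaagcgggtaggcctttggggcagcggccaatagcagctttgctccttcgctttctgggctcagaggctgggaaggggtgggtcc
Hk2: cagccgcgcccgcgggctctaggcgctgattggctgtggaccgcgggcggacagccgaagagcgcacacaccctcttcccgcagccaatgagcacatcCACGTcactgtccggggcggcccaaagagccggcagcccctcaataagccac
Pdk1: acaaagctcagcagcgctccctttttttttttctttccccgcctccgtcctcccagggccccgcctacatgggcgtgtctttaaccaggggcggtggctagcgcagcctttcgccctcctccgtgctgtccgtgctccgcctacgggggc
Suclg2: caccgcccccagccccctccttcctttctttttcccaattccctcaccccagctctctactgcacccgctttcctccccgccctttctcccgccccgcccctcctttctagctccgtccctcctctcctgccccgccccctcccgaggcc
The Pgk1 window held 2 matches, the Hk2 window 1 and the Pdk1 and Suclg2 windows 0. Over windows from 250 bases before to 50 after a start, ACGTG stood on either strand in 42.9% of the 49 promoters found for 32 members, against 19.6% of all 32851 promoters. The share was 44.4% for the 27 promoters of cytosolic members and 38.1% for the 21 of mitochondrial members, of which 6 of 8 matching promoters belong to Ogdh alone. Counted once per gene, at least 1 match stood in 10 of 16 cytosolic and 3 of 15 mitochondrial members, against 21.8% of 27025 genes. CTTTGA, a core of the letters bound by TCF factors of the Wnt pathway and searched for on both strands after the data had been seen, stood in 14.3% of the members' promoters and in 16% of all promoters. These matches describe the letters only, some genes have several start sites, and no binding was measured.

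Each library held 13466225 to 20296087 listed reads. Apc, the target of the siRNAs, was the check of the labels: it lay at 2.13, 2.59, 3.54 and 2.17 (log2 CPM, read counts scaled to the effective library size) in siControl CB replicates 1 to 4 and at 0.54, 1.42, 1.02 and 0.75 in siAPC CB. In Ps it lay at 3.52, 3.73, 3.29 and 3.56 in siControl and at 1.63, 1.90, 1.87 and 1.33 in siAPC. The groups did not overlap in either fraction, and Apc fell 3.19-fold in CB (log2 -1.67, limma adjusted p = 0.000142) and 3.59-fold in Ps (log2 -1.84, adjusted p = 3.11e-05). GC-rich transcripts read lower, and GC-poor ones higher, in 1 library per group than in its companions: siControl CB replicate 3, siControl Ps replicate 2, siAPC CB replicate 2 and siAPC Ps replicate 2 (Spearman's rho -0.66 to -0.54 across genes). Results are therefore also given without these 4 libraries, and with a correction of each library for GC content and length (loess). All 9 fibroblast markers were listed, with 275908 to 1138276 summed reads per library and fewer in Ps (275908 to 557087) than in CB (664284 to 1138276). Their mean levels ran from -1.74 to 13.08 log2 CPM. The lowest of them thus lay below the lowest listed epithelial (1.02), immune (-0.35) and endothelial (-1.49) marker. Of the immune markers 2 of 4 were listed (51 to 146 reads), of the endothelial 1 of 3 (0 to 12 reads) and of the epithelial 3 of 6, Cdh1, Krt8 and Krt14 (3217 to 8550 reads). Summed epithelial reads also stood apart between siRNAs in CB (5509 to 6232 in siControl, 6748 to 8550 in siAPC) and were 3217 to 4663 in siControl Ps against 4537 to 6514 in siAPC Ps. Summed fibroblast reads were 275908 to 376814 in siControl Ps against 410564 to 557087 in siAPC Ps. Reads of the mitochondrial genome took 1.37 to 1.95% of a CB library and 2.18 to 4.16% of a Ps library. Within Ps they took 2.65 to 4.16% in siControl and 2.18 to 2.86% in siAPC, and the ratio of effective to listed library size was 0.801 to 0.908 in siControl Ps and 0.968 to 0.995 in siAPC Ps, with no overlap. The part of these differences between fractions and between siRNAs in the results below was not tested.

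Cytosolic enzymes were far more abundant than mitochondrial ones in every library. Members took 1.60 to 1.94% of the listed reads of a library. In siControl CB the 16 cytosolic members took 1.5% ± 0.0936 (SD, n = 4) of listed reads and the 16 mitochondrial members 0.235% ± 0.00548. The corresponding shares were 1.58% ± 0.0869 and 0.251% ± 0.00529 in siControl Ps, 1.49% ± 0.111 and 0.242% ± 0.00502 in siAPC Ps, and 1.43% ± 0.0378 and 0.224% ± 0.00345 in siAPC CB. Per kilobase of transcript, a scale on which genes can be compared, the cytosolic median exceeded the mitochondrial median by 2.29 ± 0.03 log2 units in siControl CB, 2.5 ± 0.12 in siControl Ps, 2.47 ± 0.11 in siAPC Ps and 2.34 ± 0.05 in siAPC CB (mean ± SD, n = 4). These levels rest on 1 annotated transcript length per gene.

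On the per-kilobase log2 scale in siControl CB, Gapdh, the glyceraldehyde-3-phosphate dehydrogenase often used as a housekeeping reference, was highest at 11.16 ± 0.14 (SD, n = 4). Pkm, the pyruvate kinase that forms pyruvate and ATP, followed at 10.36 ± 0.18, then Aldoa, the main aldolase of fibroblasts, at 9.89 ± 0.19 and Eno1 (enolase) at 9.55 ± 0.17. The highest mitochondrial members were Mdh2 (mitochondrial malate dehydrogenase) at 8.0 ± 0.14 and Cs (citrate synthase) at 7.50 ± 0.17. Neighbours such as Tpi1 at 9.03 ± 0.17 and Pgk1 at 9.02 ± 0.09 did not differ beyond their spread. At the bottom stood Hk2 at 1.82 ± 0.35 and Aldoc, the brain-type aldolase, at -3.75 ± 0.86, the latter resting on 117 reads in all 16 libraries. Hk2 had 7195 reads in all and Gapdh 1095734.

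Isozymes of a step differed in level per kilobase, though Pfkl and Pfkm, the liver and muscle phosphofructokinases, were only 1.18-fold apart in siControl CB. Hk1, the constitutive hexokinase, exceeded Hk2 per kilobase 21.5-fold in siControl CB and 19.6-fold in siControl Ps, but 10.8-fold in siAPC Ps and 12.5-fold in siAPC CB. Ldha, the muscle-type lactate dehydrogenase, exceeded heart-type Ldhb 11.3-fold in siControl CB and 9.93-fold in siAPC Ps. Mdh2 exceeded Mdh1 3.60-fold in siControl CB, 3.65-fold in siControl Ps, 2.89-fold in siAPC Ps and 3.07-fold in siAPC CB. Succinyl-CoA ligase pairs the alpha subunit Suclg1 with either the GDP-forming beta subunit Suclg2 or the ADP-forming Sucla2. Suclg2 exceeded Sucla2 per kilobase 2.95-fold in siControl CB and 1.71-fold in siControl Ps, and 2.71-fold and 1.38-fold in siAPC CB and Ps. Its lead over Sucla2 was thus smaller in Ps than in CB under both siRNAs, as a description of the group means.

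**Figure D1:**
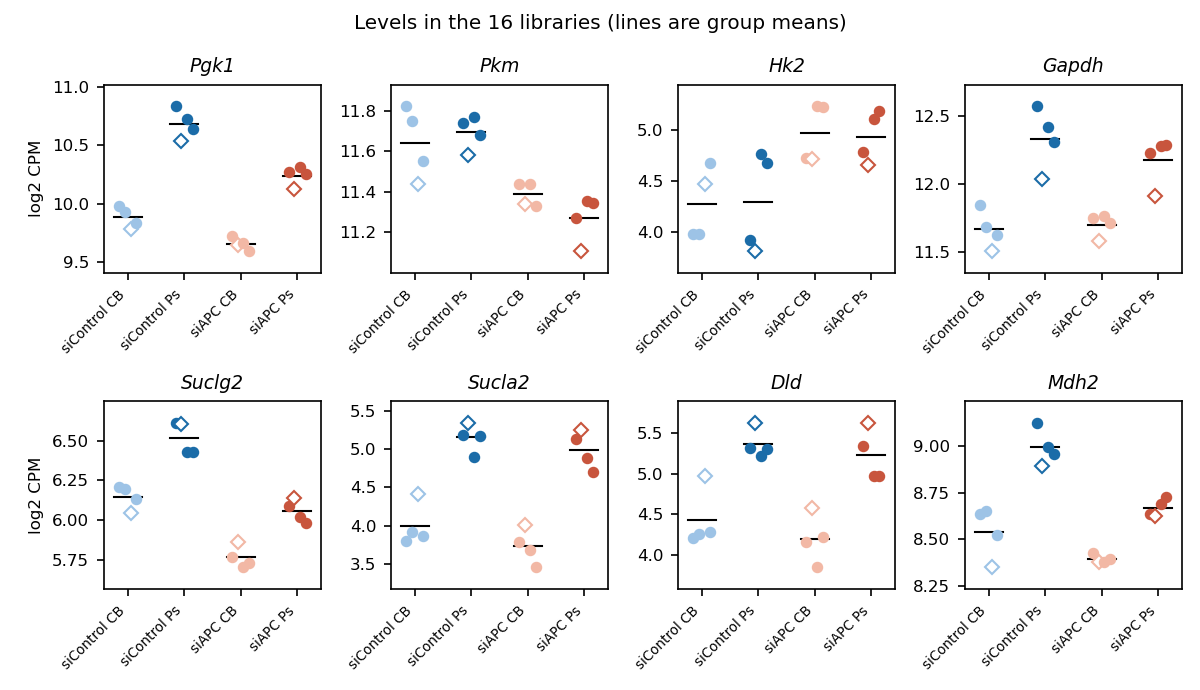
Levels of 8 members (log2 CPM, linear axis of log2 values) in each of the 16 libraries, by group, with a line at each group mean and open diamonds for the 4 libraries whose values fall with GC content. Pgk1, Gapdh, Sucla2 and Dld lie higher in Ps than in CB, and Hk2 lies higher and Suclg2 lower in siAPC than in siControl of the same fraction.

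In siControl cells, 22 of the 33 members were higher in Ps than in CB and none was lower at an adjusted p below 0.05 in a limma fit over all genes. Of all genes tested, 29.1% were called higher and 31.2% lower, so the members' calls leaned to the Ps side. At an unadjusted p below 0.05, 23 members were higher and 1 lower, beside 4065 higher and 4307 lower of all 13015 genes. The calls took in 14 of 16 mitochondrial members, 7 of 16 cytosolic members and Mdh1. With a change above 1.5-fold as well, 7 members were higher, Gapdh and Pgk1 among the cytosolic and Sucla2, Dld, Pdha1, Fh1 and Idh3b among the mitochondrial, and 0 were lower. The same rule called 16.3% of all genes higher and 18.1% lower. The split of the calls depended on the scaling, with 12 higher and 8 lower after scaling to total listed reads, 17 and 6 after quantile normalization and 28 and 0 with the loess correction. Over all genes these settings called 15.4% higher and 47.6% lower, 30.2% and 30.2%, and 29.7% and 25.2%, in the same order.

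Among mitochondrial members the highest difference was that of Sucla2, the ADP-forming beta subunit of succinyl-CoA ligase. It lay at 3.8, 3.91, 4.41 and 3.86 in siControl CB replicates 1 to 4 and at 5.18, 5.34, 4.90 and 5.18 in siControl Ps (log2 CPM). Each Ps library exceeded each CB library, and Sucla2 rose 2.23-fold (log2 difference 1.16, SE 0.15, limma adjusted p = 1.49e-06). Dld, the E3 subunit shared by the pyruvate and oxoglutarate dehydrogenase complexes, lay at 4.21, 4.26, 4.97 and 4.27 in siControl CB and 5.32, 5.63, 5.21 and 5.30 in siControl Ps. The groups did not overlap, the CB library nearest to the Ps range was replicate 3 (1 of the 4 libraries with a GC trend), and Dld rose 1.91-fold (log2 difference 0.94, SE 0.18, limma adjusted p = 0.000150). Pdha1, the E1 alpha subunit that starts the pyruvate dehydrogenase reaction, lay at 7.09, 7.07, 7.30 and 7.2 in CB and 8.06, 8.10, 7.98 and 7.95 in Ps. Its groups did not overlap, and it rose 1.81-fold (log2 difference 0.86, SE 0.07, limma adjusted p = 2.98e-09).

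The other subunits of the pyruvate dehydrogenase complex differed less. Pdhb (E1 beta) differed by 0.29 and Dlat (E2) by 0.22. Pdk1, the kinase that switches the complex off, differed by 0.22, and these 3 values were -0.01, -0.08 and -0.07 when libraries were scaled to total listed reads. That scaling moved the median of all genes by -0.30 in this comparison, and each member by the same amount, so its place relative to all genes stayed as it was. In the TCA cycle, Idh3a (the catalytic subunit of NAD-dependent isocitrate dehydrogenase) differed by 0.53 (SE 0.08, adjusted p = 1.07e-05), Fh1 (fumarase) by 0.60 (SE 0.06, adjusted p = 3.73e-08) and Idh3b by 0.59 (SE 0.06, adjusted p = 1.86e-07). Cs differed by 0.39, Idh3g by 0.24, Suclg1 by 0.38 and Suclg2 by 0.37. With total listed reads Cs (0.09), Idh3g (-0.05), Suclg1 (0.08) and Suclg2 (0.08) no longer passed, and with the loess correction neither Pdhb (-0.05) nor Idh3g (0.01) did. Members of 1 enzyme thus spread widely, with Suclg1 and Suclg2 far below Sucla2. Dlst, the E2 subunit of oxoglutarate dehydrogenase, differed by 0.06 (SE 0.06, adjusted p = 0.403). Ogdh, the E1 subunit of the same complex, lay at 7.62, 7.64, 7.29 and 7.46 in CB and 7.36, 7.31, 7.35 and 7.36 in Ps, overlapping ranges with a difference of -0.16 (SE 0.07, adjusted p = 0.0570). Ogdh was called lower in Ps with total reads (-0.45, adjusted p = 1.07e-06), under quantile normalization (-0.12, adjusted p = 0.0445), without the 4 GC-trend libraries (-0.22, adjusted p = 0.00471) and with limma arrayWeights (-0.23, adjusted p = 0.00119), and higher with the loess correction (0.20, adjusted p = 0.00750). Dlst likewise was called lower with total reads (-0.24, adjusted p = 0.000268) and higher with the loess correction (0.22, adjusted p = 2.51e-05).

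Mdh2, the mitochondrial malate dehydrogenase, lay at 8.64, 8.65, 8.35 and 8.52 in siControl CB and at 9.12, 8.89, 8.99 and 8.96 in siControl Ps. Its cytosolic counterpart Mdh1, which exchanges reducing equivalents with it through the malate-aspartate shuttle, lay at 7.32, 7.28, 7.12 and 7.22 in CB and 7.72, 7.70, 7.61 and 7.64 in Ps. Both rose, Mdh2 by 0.45 (SE 0.07, adjusted p = 8.82e-06) and Mdh1 by 0.43 (SE 0.05, adjusted p = 1.4e-06), and neither pair of groups overlapped.

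Among cytosolic members Pgk1, which makes the first ATP of glycolysis, led. Pgk1 lay at 9.98, 9.93, 9.79 and 9.84 in siControl CB and 10.84, 10.53, 10.72 and 10.64 in siControl Ps. No library overlapped, and Pgk1 rose 1.74-fold (log2 difference 0.80, SE 0.07, limma adjusted p = 1.35e-08). Gapdh lay at 11.84, 11.68, 11.50 and 11.62 in CB and 12.57, 12.03, 12.42 and 12.31 in Ps, a difference of 0.67 (SE 0.11, adjusted p = 3.93e-05). The sign of the Gapdh difference depended on the scaling, since under quantile normalization it was -0.23 and with the loess correction 0.64. The same turn under quantile normalization occurred for Aldoa (0.36 and -0.38), Pkm (0.05 and -0.82) and Eno1 (0.19 and -0.56), all at the top of the range of levels. With total listed reads Aldoa no longer passed (0.07, adjusted p = 0.322). Ldhb, which favours lactate oxidation, differed by 0.48 (SE 0.07, adjusted p = 8.76e-06) and kept its direction under each scaling tried.

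At the entry of glycolysis no fraction difference passed the test on the deposited values in siControl cells for either hexokinase or any of the 3 phosphofructokinases, and calls for 4 of these genes turned with the scaling. Hk1 lay at 8.41, 8.34, 8.25 and 8.35 in siControl CB and 8.15, 8.04, 8.40 and 8.32 in siControl Ps, overlapping ranges with a difference of -0.11 (SE 0.08, adjusted p = 0.244). Hk2 differed by 0.02 (SE 0.21, adjusted p = 0.944). Pfkp, the platelet-type isozyme of the committed step, lay at 6.18, 6.17, 5.96 and 6.0 in CB and 6.0, 5.99, 6.10 and 6.12 in Ps, overlapping ranges with a difference of -0.03 (SE 0.07, adjusted p = 0.759). Pfkl differed by -0.09 (SE 0.10, adjusted p = 0.429) and Pfkm by -0.01 (SE 0.07, adjusted p = 0.933). Gpi1, which isomerizes glucose 6-phosphate, lay at 9.98, 9.93, 9.62 and 9.80 in CB and 10.47, 10.20, 10.36 and 10.26 in Ps and differed by 0.49 (SE 0.08, adjusted p = 2.87e-05), a call lost under quantile normalization (0.05, adjusted p = 0.367). Tpi1, which interconverts the triose phosphates, differed by 0.27, the mutase Pgam1 by 0.06 and Ldha by 0.29. Of these Tpi1 and Ldha passed, but both calls were lost and the sign turned under quantile normalization (-0.06 and -0.00022) and with total reads (-0.03 and -0.0084), and Pgam1 was called lower with total reads (-0.23, adjusted p = 0.0219). With total listed reads Hk1 (-0.41, adjusted p = 0.000261), Pfkl (-0.39, adjusted p = 0.000448), Pfkm (-0.30, adjusted p = 0.000112) and Pfkp (-0.32, adjusted p = 0.000395) were called lower in Ps, as was Hk1 under quantile normalization (-0.17, adjusted p = 0.0254). With the loess correction the same 4 were called higher, at 0.43, adjusted p = 1.32e-08, 0.43, adjusted p = 2.34e-05, 0.32, adjusted p = 4.34e-05 and 0.15, adjusted p = 0.0495.

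**Figure D2:**
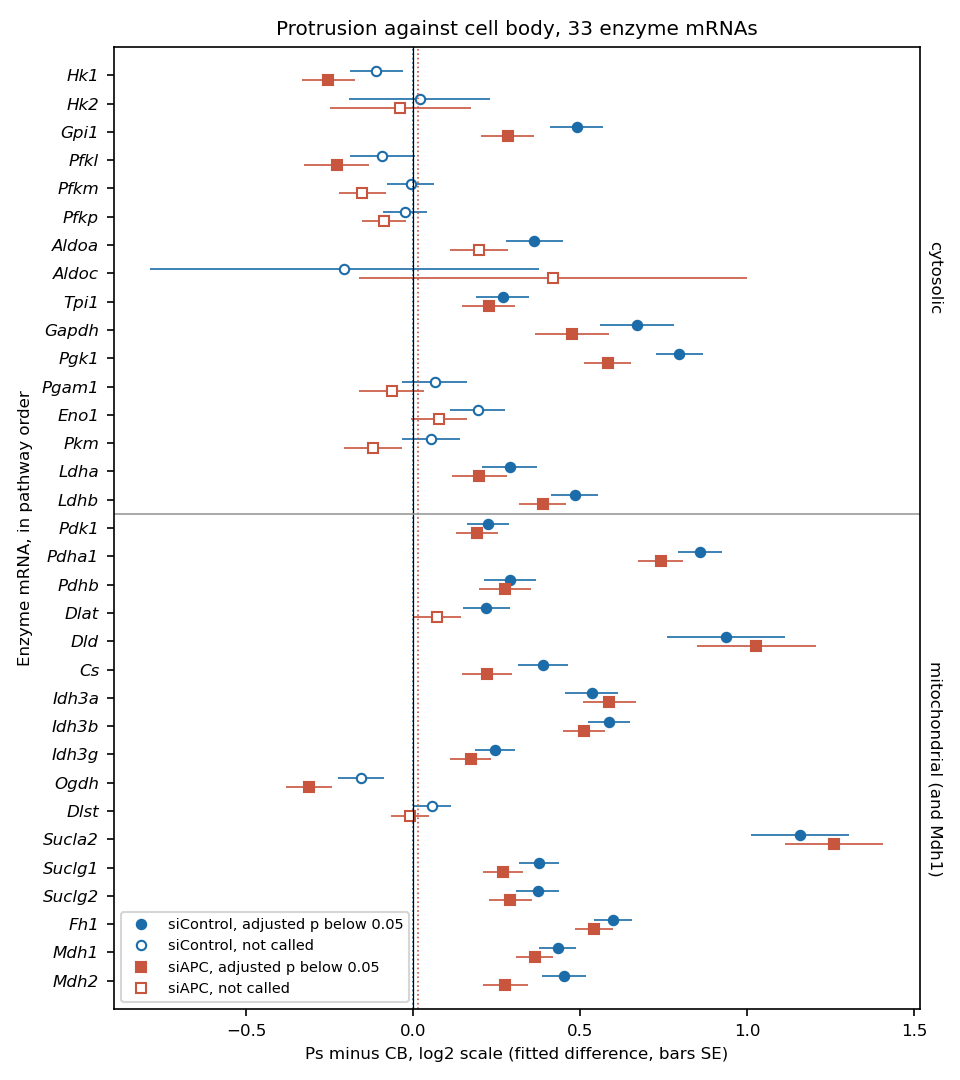
Fitted log2 difference of Ps against CB for each of the 33 members in siControl and in siAPC cells, with bars of 1 standard error, ordered by pathway step. Most points lie above 0 under both siRNAs, with Sucla2, Dld and Pdha1 farthest to the Ps side and Hk1, Pfkl, Pfkp and Ogdh at or below 0.

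Side by side, the median of the fitted differences was 0.13 for the cytosolic and 0.38 for the mitochondrial members in siControl cells, beside -0.00 for all genes. The cytosolic median lay -0.25 from the mitochondrial median, and within replicate numbers 1 to 4, for which a pairing of the siControl CB and Ps libraries was not shown, this gap was -0.37, -0.38, 0.09 and -0.15. The library with the GC trend is replicate 3 in siControl CB and replicate 2 in the other 3 groups, and whether numbers 2 and 3 of siControl CB correspond to those of the other groups is not settled by the labels. The values for numbers 2 and 3 would change if they did not. The gap shrank to -0.13 with the 4 GC-trend libraries left out, widened to -0.41 under quantile normalization and turned to 0.06 with the loess correction. With that correction the medians were 0.41 and 0.35, beside 0.03 for all genes. The mitochondrial median thus lay above that of all genes under each of these settings, whereas its lead over the cytosolic median did not hold under all of them.

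GC content and length of the transcripts moved with the fraction difference. Cytosolic members had a median GC content of 53.5% and mitochondrial members of 47.5%, against 50.5% for the 12882 genes with annotation. Over those genes Spearman's rho of the Ps against CB difference with GC content was -0.33 in siControl and -0.44 in siAPC, and over the 33 members -0.42 and -0.53. With transcript length it was -0.34 and -0.30 over all genes and -0.44 and -0.38 over the members. These are correlations across genes that share libraries, given as a description. Of 10 equal bins of genes by GC content, the lowest had a median difference of 0.44 in siControl and 0.63 in siAPC and the highest of -0.34 and -0.39. Within the range of 48.9 to 55.4% that both compartments hold, 10 cytosolic members had medians of 0.17 in siControl and 0.21 in siAPC, and 7 mitochondrial members 0.38 and 0.22, a comparison added after the data had been seen. The part of GC content in the compartment gap was not tested beyond these values.

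**Figure D3:**
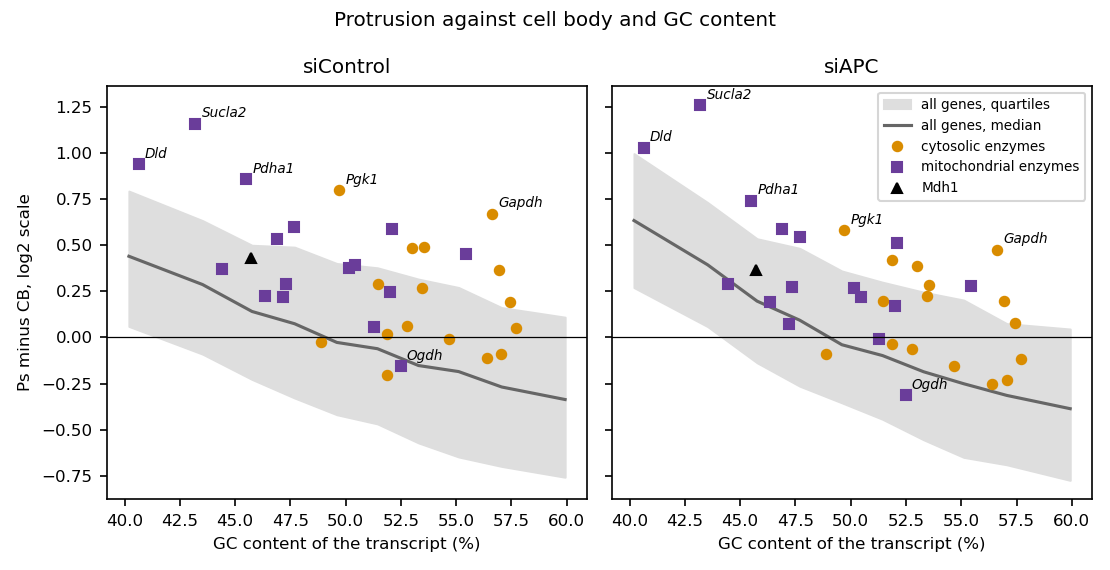
Fitted log2 difference of Ps against CB against the GC content of the transcript (%), for the cytosolic and mitochondrial members and for all genes as medians and quartiles of 10 equal bins by GC content, in siControl and siAPC cells. The medians of all genes fall from 0.44 to -0.34 in siControl and from 0.63 to -0.39 in siAPC as GC content rises, and most members lie above them at their own GC content.

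In siAPC cells 20 members were higher and 3 lower in Ps than in CB. Over all genes 29.8% were called higher and 30.9% lower. Of the mitochondrial members 13 rose and 1 fell, of the cytosolic members 6 rose and 2 fell, and Mdh1 rose. Above 1.5-fold, 4 members were higher, all mitochondrial, and 0 lower, beside 17.2% of all genes higher and 16% lower. Scaling to total listed reads gave 12 higher and 8 lower members, quantile normalization 17 and 6, and the loess correction 22 and 0. Over all genes they called 21.5% higher and 39.3% lower, 30.3% and 31.8%, and 28.7% and 22.4%.

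Sucla2 lay at 3.79, 4.0, 3.68 and 3.45 in siAPC CB and 5.13, 5.25, 4.89 and 4.70 in siAPC Ps and rose 2.39-fold (log2 difference 1.26, SE 0.15, limma adjusted p = 6.16e-07). Dld lay at 4.15, 4.57, 3.84 and 4.22 in CB and 5.34, 5.62, 4.97 and 4.97 in Ps and rose by 1.03 (SE 0.18, adjusted p = 6.08e-05). Pdha1 lay at 7.05, 7.12, 6.89 and 6.98 in CB and 7.75, 7.88, 7.70 and 7.67 in Ps and rose by 0.74 (SE 0.07, adjusted p = 2.53e-08). All Ps libraries exceeded all CB libraries for each of these genes of pyruvate and succinate metabolism. Pgk1 rose by 0.58 (SE 0.07, adjusted p = 9.43e-07) and Gapdh by 0.48 (SE 0.11, adjusted p = 0.00118), the latter with 11.75, 11.58, 11.76 and 11.71 in CB and 12.22, 11.91, 12.28 and 12.29 in Ps, and with -0.29 under quantile normalization. Mdh2 lay at 8.42, 8.38, 8.38 and 8.39 in CB and 8.64, 8.62, 8.69 and 8.73 in Ps and rose by 0.28 (SE 0.07, adjusted p = 0.00138). Mdh1 lay at 7.35, 7.34, 7.28 and 7.29 in CB and 7.66, 7.64, 7.65 and 7.77 in Ps and rose by 0.36 (SE 0.05, adjusted p = 1.24e-05), so both malate dehydrogenases were again on the Ps side. Aldoa differed by 0.20 (SE 0.09, adjusted p = 0.0541) and passed with the replicate block (0.20, adjusted p = 0.0350). The members called lower were Ogdh, Hk1 and Pfkl. Ogdh lay at 7.53, 7.44, 7.41 and 7.34 in CB and 7.15, 7.03, 7.14 and 7.14 in Ps, with all Ps libraries below all CB libraries, and fell by 0.31 on the log2 scale (adjusted p = 0.000640). Hk1 lay at 8.27, 8.19, 8.31 and 8.25 in CB and 8.0, 7.78, 8.09 and 8.13 in Ps and differed by -0.25 (SE 0.08, adjusted p = 0.0102), Pfkl by -0.23 (SE 0.10, adjusted p = 0.0486). With the loess correction these took values above 0, at 0.08, 0.34 and 0.34, so no call to the CB side held under that setting. Calls to the Ps side that were lost were, with total listed reads, those of Tpi1, Ldha, Pdk1, Pdhb, Cs, Idh3g, Suclg1 and Suclg2, under quantile normalization those of Gpi1, Tpi1, Gapdh and Ldha, and with the loess correction those of Pdhb, Idh3g, Suclg1, Suclg2 and Mdh1. Among members not called on the deposited values, Pfkm, Pkm and Dlst were called lower with total reads (-0.31, -0.27 and -0.16) and higher with the loess correction (0.21, 0.28 and 0.17), and Aldoa, Eno1 and Pkm were called lower under quantile normalization (-0.38, -0.58 and -0.87).

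Several siAPC calls were lost when 1 library was left out. Tpi1 no longer passed without siAPC CB replicate 2 or 4 or siAPC Ps replicate 4 (0.20 to 0.21, adjusted p = 0.0509 to 0.0576), nor Idh3g without siAPC CB replicate 4 or siAPC Ps replicate 3 or 4 (0.14 to 0.16, adjusted p = 0.0520 to 0.0672). Ldha no longer passed without siControl Ps replicate 4, siAPC CB replicate 2, 3 or 4, or siAPC Ps replicate 1, 3 or 4 (0.16 to 0.22, adjusted p = 0.0503 to 0.121). Pdk1 lost its call without siAPC CB replicate 4 (0.14, adjusted p = 0.0623) and Cs without siAPC Ps replicate 4 (0.18, adjusted p = 0.0571). Pfkl lost it without any of 9 libraries (-0.25 to -0.15, adjusted p = 0.0502 to 0.188), namely siControl CB replicate 4, siControl Ps replicates 1, 3 and 4, siAPC CB replicates 1, 2 and 3 and siAPC Ps replicates 1 and 2. The median difference was 0.14 for cytosolic and 0.28 for mitochondrial members, beside 0.01 for all genes. The gap of -0.14 was -0.46 under quantile normalization and 0.07 with the loess correction.

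Members on the Ps side under deposited, total-read, quantile and loess-corrected values alike formed a smaller set. In siControl it held 10 members, Pgk1 and Ldhb of glycolysis, Pdha1 and Dld of the pyruvate dehydrogenase complex, Idh3a, Idh3b, Sucla2, Fh1 and Mdh2 of the TCA cycle, and Mdh1. In siAPC it held 9 of them, without Mdh1. Over all genes the same joint rule called 12.4% higher in siControl and 15.4% in siAPC. This set was formed after the data had been seen.

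Whether the distribution between Ps and CB differed between siRNAs was tested by the interaction term. By limma 0 members were called higher and 0 lower, beside 0.0% and 0.0231% of all genes. At an unadjusted p below 0.05, 269 of all 13015 genes were higher and 223 lower, and of the members 0 were higher and 1 was lower, Pgk1. Its Ps excess was 0.80 in siControl and 0.58 in siAPC, an interaction of -0.22 (SE 0.10, unadjusted p = 0.0433, adjusted p = 0.981). Next lowest was Gpi1 at -0.21 (SE 0.11), with 9.77, 9.66, 9.78 and 9.69 in siAPC CB and 10.01, 9.88, 10.07 and 10.07 in siAPC Ps. The highest values were those of Aldoc at 0.62 (SE 0.82), which rests on very few reads, and Sucla2 at 0.10 (SE 0.21). In all, 29 of 33 interaction values lay below 0, with a median of -0.13 for cytosolic and -0.07 for mitochondrial members, beside 0.00 for all genes. When libraries were scaled to total reads these medians were 0.01, 0.07 and 0.15, a shift of the whole distribution.

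Between siRNAs, 1 member was higher in siAPC CB (Hk2) and 3 were lower (Pgk1, Pdk1 and Suclg2), beside 7.52% of all genes called higher and 5.87% lower. In Ps 2 were higher (Hk2 and Aldoc) and 13 lower, beside 10.7% and 11.2% of all genes. The 13 took in 5 cytosolic members (Gpi1, Pfkm, Aldoa, Pgk1 and Pkm) and 8 mitochondrial members (Pdk1, Pdha1, Dlat, Cs, Ogdh, Suclg2, Fh1 and Mdh2). None of the lower members passed 1.5-fold in either fraction. The medians in Ps were -0.14 for cytosolic and -0.20 for mitochondrial members beside -0.02 for all genes, and in CB -0.04 and -0.14 beside -0.04. With 1 library left out at a time, the cytosolic median ran from -0.17 to -0.07 in Ps and from -0.11 to 0.02 in CB. The mitochondrial median ran from -0.24 to -0.17 in Ps and from -0.15 to -0.10 in CB. That more members passed in Ps than in CB does not show a difference between fractions, since no interaction passed. Scaling to total reads moved every gene by 0.16 in Ps and by 0.02 in CB, to medians of all genes of 0.14 and -0.02.

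Suclg2 differed between siRNAs in both fractions. It lay at 6.21, 6.20, 6.04 and 6.13 in siControl CB and 5.77, 5.86, 5.70 and 5.73 in siAPC CB, and at 6.61, 6.61, 6.43 and 6.43 in siControl Ps and 6.09, 6.14, 6.02 and 5.98 in siAPC Ps. Every siAPC library was lower than every siControl library of its fraction. Suclg2 fell 1.30-fold in CB (log2 -0.38, SE 0.06, limma adjusted p = 0.000402) and 1.38-fold in Ps (log2 -0.46, SE 0.06, adjusted p = 3.4e-05). The partner subunits did not pass in either fraction, with Suclg1 at 0.00 in CB and -0.10 in Ps and Sucla2 at -0.26 and -0.16. Pdk1 lay at 5.65, 5.68, 5.54 and 5.57 in siControl CB and 5.39, 5.32, 5.33 and 5.15 in siAPC CB, and at 5.87, 5.85, 5.82 and 5.80 in siControl Ps and 5.48, 5.55, 5.52 and 5.40 in siAPC Ps. This inhibitory kinase of pyruvate dehydrogenase fell by 0.31 in CB and by 0.34 in Ps on the log2 scale (adjusted p = 0.00203 and 0.000533).

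Pgk1 lay at 9.73, 9.65, 9.66 and 9.60 in siAPC CB and 10.27, 10.13, 10.31 and 10.25 in siAPC Ps, against the siControl values above. It fell 1.36-fold in Ps (log2 difference -0.44, SE 0.07, limma adjusted p = 0.000142), where the groups did not overlap. In CB the difference was -0.23 (SE 0.07, adjusted p = 0.0386), and it no longer passed without any 1 of siControl CB replicates 1, 2 and 4, siAPC CB replicates 2, 3 and 4 or siAPC Ps replicate 1 (-0.24 to -0.19, adjusted p = 0.0502 to 0.122). Pkm lay at 11.74, 11.58, 11.77 and 11.68 in siControl Ps and 11.27, 11.11, 11.35 and 11.34 in siAPC Ps and fell by 0.43 on the log2 scale (SE 0.09, adjusted p = 0.00145). In CB its libraries lay at 11.82, 11.75, 11.44 and 11.55 in siControl and 11.44, 11.34, 11.44 and 11.33 in siAPC, overlapping, with a difference of -0.25 (SE 0.09, adjusted p = 0.0605). Of the next members in Ps, Aldoa differed by -0.37 (SE 0.09, adjusted p = 0.00384), Gpi1 by -0.32 (SE 0.08, adjusted p = 0.00721) and Mdh2 by -0.32 (SE 0.07, adjusted p = 0.00151). Under quantile normalization Pkm (-0.11, adjusted p = 0.340), Gpi1 (-0.14, adjusted p = 0.0556) and Pdha1 (-0.19, adjusted p = 0.109) no longer passed in Ps. Gapdh differed by 0.04 in CB and -0.16 in Ps, and Pfkp, which gave 6.21, 6.24, 6.28 and 6.19 in siAPC CB and 6.03, 6.08, 6.19 and 6.26 in siAPC Ps, by 0.15 and 0.09. None of these 4 values passed the test.

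Some of the 13 lower calls in Ps were near the threshold. Pfkm and Ogdh no longer passed without siAPC Ps replicate 2, at -0.19, adjusted p = 0.0608 and at -0.20, adjusted p = 0.0592. Cs no longer passed without siControl Ps replicate 1 or siAPC Ps replicate 1 or 2 (-0.23 to -0.22, adjusted p = 0.0588 to 0.0609). Members lower in Ps under all 4 scalings were Aldoa, Pgk1, Pdk1, Suclg2 and Mdh2, and in CB Pgk1, Pdk1 and Suclg2, beside 3.87% and 3.96% of all genes. The number of members called lower in CB rose from 3 to 14 when libraries were weighted by their quality (limma arrayWeights), to 12 with the loess correction, to 8 with the 4 GC-trend libraries left out and to 7 without siControl CB replicate 3 alone. The share of all genes called lower rose with it, from 5.87% to 15%, 12.4%, 8.51% and 7.69%. In Ps, scaling to total listed reads gave 5 higher and 7 lower members in place of 2 and 13, without Pfkm, Pdha1, Dlat, Cs, Ogdh and Fh1 among the lower, while the shares of all genes went from 10.7% to 22.6% higher and from 11.2% to 4.23% lower.

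Hk2, the inducible hexokinase of proliferating cells, was the member higher in siAPC in both fractions. In CB it lay at 3.99, 3.98, 4.47 and 4.67 in siControl and 4.73, 4.71, 5.23 and 5.22 in siAPC. In Ps it lay at 3.93, 3.82, 4.77 and 4.67 in siControl and 4.79, 4.66, 5.11 and 5.19 in siAPC. In each group replicates 1 and 2 lay below replicates 3 and 4, and within each number siAPC exceeded siControl. Hk2 rose 1.62-fold in CB (log2 difference 0.70, SE 0.21, limma adjusted p = 0.0341) and 1.56-fold in Ps (log2 difference 0.64, SE 0.21, limma adjusted p = 0.0361). The groups did not overlap in CB and overlapped in Ps, and each call was lost when any 1 of 4 libraries was left out. In CB Hk2 no longer passed without siControl CB replicate 1 or 2 or siAPC CB replicate 3 or 4 (0.60 to 0.61, adjusted p = 0.102 to 0.116). In Ps it no longer passed without siControl Ps replicate 1 or 2 or siAPC Ps replicate 3 or 4 (0.48 to 0.58, adjusted p = 0.0926 to 0.122), nor with the 4 GC-trend libraries left out (0.57, adjusted p = 0.0616). Hk1 differed by -0.08 (SE 0.08, adjusted p = 0.570) in CB and -0.23 (SE 0.08, adjusted p = 0.0510) in Ps, where it passed once the replicate number was taken as a block (-0.23, adjusted p = 0.00618).

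Aldoc was close to the detection limit, with 6, 2, 2 and 5 reads in siControl CB, 10, 13, 9 and 10 in siAPC CB, and in Ps 3, 0, 5 and 3 in siControl and 15, 16, 8 and 10 in siAPC. Every siAPC library had more reads than every siControl library of its fraction. Summed and scaled to library size, the siAPC to siControl ratio was 3.64 in Ps (49 against 11 reads, exact 95% interval 1.87 to 7.77) and 2.70 in CB (42 against 15 reads, 1.47 to 5.25). These intervals cover counting error only. For siControl Ps against CB the ratio was 1.03 (0.426 to 2.39). Aldoc passed the limma test in Ps (adjusted p = 0.0154) but not in CB (adjusted p = 0.116), nor in Ps with the 4 GC-trend libraries left out (1.16, adjusted p = 0.0675). Genes with a mean log2 value below 1, Aldoc among them, drop out under the stricter filter.

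**Figure D4:**
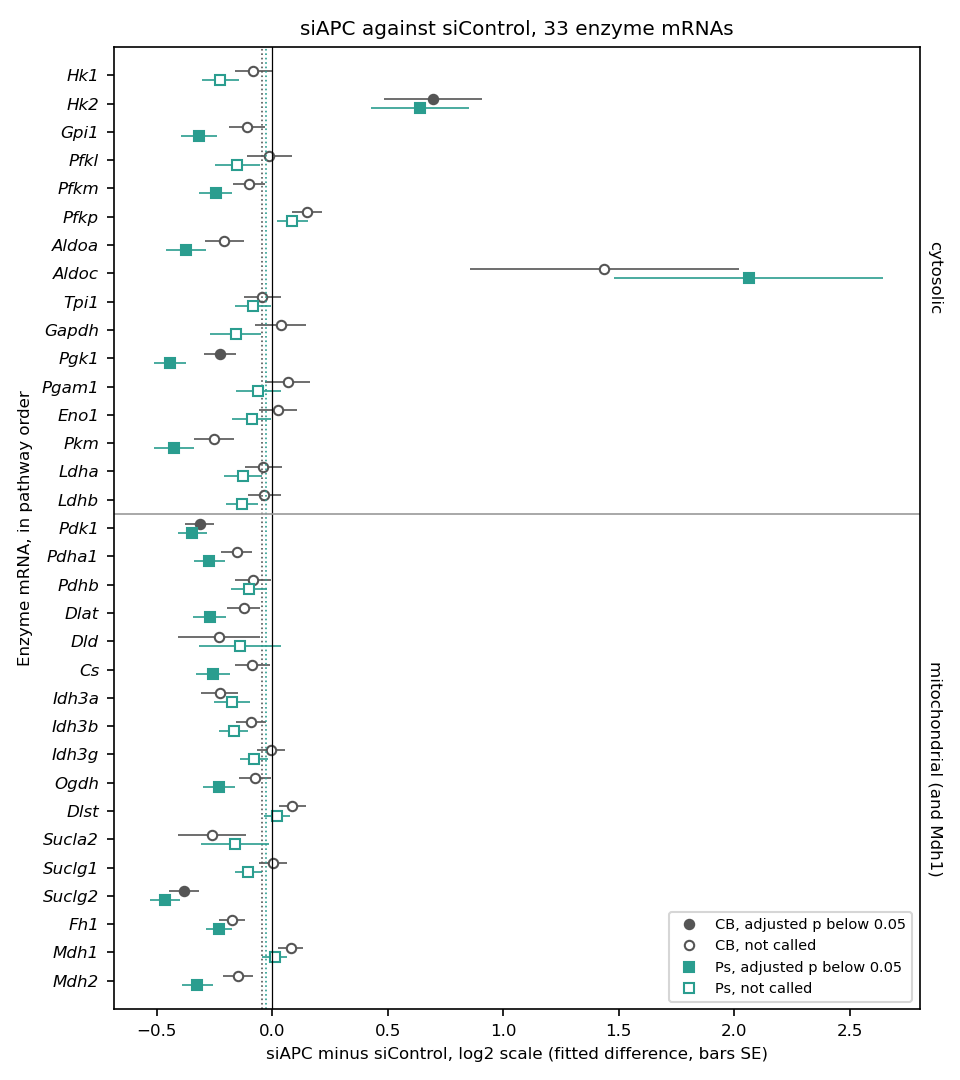
Fitted log2 difference of siAPC against siControl for each of the 33 members in CB and in Ps, with bars of 1 standard error, ordered by pathway step. Hk2 and Aldoc lie above 0 in both fractions, Suclg2, Pdk1 and Pgk1 lie below 0 in both, and most other members lie below 0 in Ps.

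**Figure D5:**
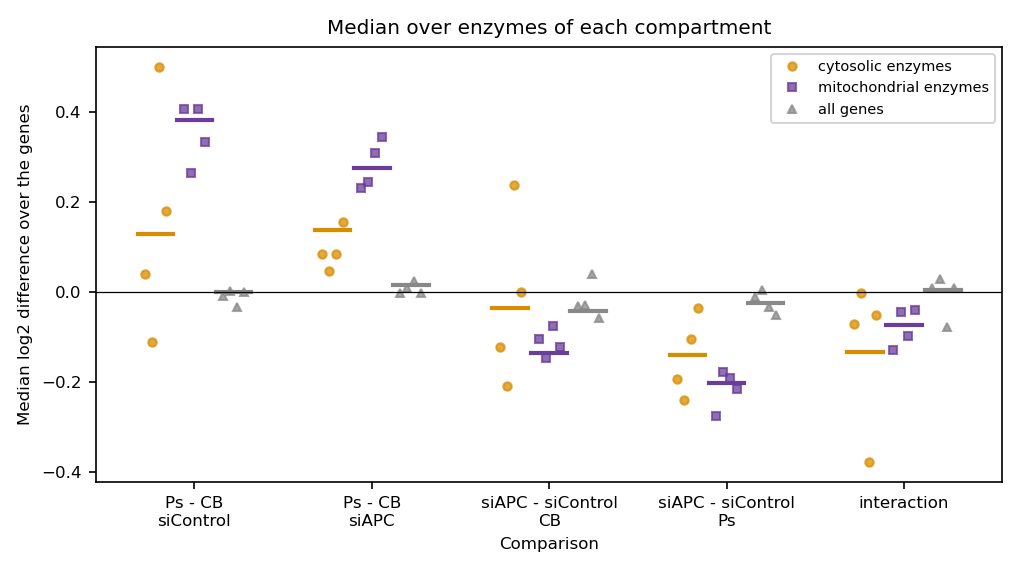
Median log2 difference of the 16 cytosolic members, the 16 mitochondrial members and all 13015 genes in each comparison, formed within replicate numbers 1 to 4 (points), with the median of the fitted values as a line. Both compartments lie above all genes for Ps against CB, except cytosolic members at -0.11 in number 2 of siControl, and below all genes for siAPC against siControl in Ps, except cytosolic members in number 4.

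Genes next to these enzymes were counted from lists of pathway neighbours, to be read against the shares of all genes called. These were 29.1% higher and 31.2% lower in Ps of siControl cells, 29.8% and 30.9% in Ps of siAPC cells, and for siAPC against siControl 7.52% and 5.87% in CB and 10.7% and 11.2% in Ps. With total listed reads, which called 15.4% of all genes higher and 47.6% lower in siControl Ps and 21.5% and 39.3% in siAPC Ps, the counts of each list moved to the CB side and are given as well. The loess correction called 29.7% and 25.2% in siControl Ps and 28.7% and 22.4% in siAPC Ps. Between siRNAs, lower calls in CB and Ps were 5.12% and 4.23% with total reads, and 6.53% and 10.8% under quantile normalization. They were 12.4% and 16.5% with the loess correction, 15% and 17% with arrayWeights and 7.36% and 13.5% with the replicate block. Higher calls in Ps were 22.6%, 11.4%, 12.9%, 14% and 11.9% in the same order. In the list of the remaining TCA and pyruvate dehydrogenase enzymes, all 15 of 15 were listed, 6 rose and 4 fell in Ps of siControl cells, and 7 rose and 5 fell in siAPC cells (with total reads 3 and 8, and 4 and 7). The 4 subunits of succinate dehydrogenase (Sdha, Sdhb, Sdhc and Sdhd), which carries TCA electrons into the respiratory chain, all rose in Ps under both siRNAs on the deposited values, by 0.34, 0.29, 0.58 and 0.48 in siControl and by 0.26, 0.20, 0.52 and 0.38 in siAPC. With total reads these values were 0.05, -0.01, 0.28 and 0.18 in siControl and 0.11, 0.05, 0.37 and 0.23 in siAPC, where Sdha and Sdhb no longer passed under either siRNA, and with the loess correction neither Sdhb (0.04 and 0.02) nor Sdhd (0.08 and 0.02) passed. These subunits were singled out after their values had been seen. On the other side were Pdpr, a regulator of the pyruvate dehydrogenase phosphatase, at -0.76 (SE 0.16, adjusted p = 0.000449) in siControl and -1.20 (SE 0.16, adjusted p = 3.05e-06) in siAPC, and Pdp2, a catalytic subunit of that phosphatase, at -1.04 (SE 0.19, adjusted p = 0.000148) in siAPC. Between siRNAs 1 gene of this list fell in CB and 6 fell in Ps, while 0 rose in either fraction. The gene that fell in CB was Idh1, at -0.49 (SE 0.07, adjusted p = 3.67e-05). It encodes the cytosolic and peroxisomal isocitrate dehydrogenase, not an enzyme of the mitochondrial cycle. With total reads 2 fell in CB, and 2 fell and 1 rose in Ps. In CB 4 fell under quantile normalization, 5 with the loess correction and 8 with arrayWeights, against 7, 7 and 8 in Ps. With the replicate block 2 fell in CB and 8 in Ps.

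Transporters of glucose, lactate and pyruvate lay mostly on the CB side on the deposited values. Of 8 listed genes of 13, 6 fell and 2 rose in Ps of siControl cells, with a median of -0.54, and 5 fell and 2 rose in siAPC cells, with a median of -0.62 (with total reads 6 fell and 1 rose, and 6 fell and 2 rose). With the loess correction 4 fell and 1 rose in siControl, with a median of -0.23. In siAPC 5 fell and 1 rose with that correction, with a median of -0.22. Slc2a1 (GLUT1, the basal glucose transporter) fell in Ps by 1.30 in siControl and by 1.12 in siAPC on the log2 scale. Slc16a1 (MCT1, a lactate carrier) fell by 0.89 and 0.72, Slc2a10 by 0.99 in siControl and Slc2a6 by 0.76 in siAPC. The exceptions were Mpc1 and Mpc2, which form the mitochondrial pyruvate carrier. Mpc2 rose by 0.89 (SE 0.08, adjusted p = 9.95e-09) in siControl and 0.85 (SE 0.08, adjusted p = 2.2e-08) in siAPC, and Mpc1 by 0.43 (SE 0.09, adjusted p = 0.000609) and 0.38 (SE 0.09, adjusted p = 0.00193). Mpc1 did not pass with total reads in siControl (0.14) and turned to -0.20 and -0.22 with the loess correction. On the deposited values in siControl cells the other 6 listed genes thus stood on the opposite side from the mitochondrial carrier. Between siRNAs, 1 gene of this list rose in CB and 2 rose in Ps, and 0 fell. In Ps 3 rose with total reads, with the replicate block or with arrayWeights.

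Of 15 listed glycolytic isozymes and regulators of 28, 3 rose and 5 fell in Ps of siControl cells and 1 rose and 4 fell in siAPC cells (with total reads 0 and 8, and 0 and 7). With the loess correction 4 rose and 3 fell in siControl, and 3 rose and 4 fell in siAPC. With the replicate block 2 rose and 4 fell in siAPC. Those past 1.5-fold were lower in Ps, namely Adpgk, an ADP-dependent glucokinase (-1.05 in siControl and -0.77 in siAPC), Pfkfb3, which makes the activator of phosphofructokinase (-0.77 and -0.86), and Pfkfb2 (-0.61 in siControl). Between siRNAs, Bpgm, the mutase that makes bisphosphoglycerate for haemoglobin, rose in siAPC by 1.09 (SE 0.12, adjusted p = 3.44e-06) in CB and 1.14 (SE 0.12, adjusted p = 1.38e-06) in Ps. The list gave 1 higher and 1 lower gene in CB, against 2 and 1 in Ps.

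Among 16 listed genes of pathways that feed or drain the TCA cycle, 9 rose and 3 fell in Ps of siControl cells and 5 rose and 3 fell in siAPC cells (with total reads 1 and 6, and 2 and 5). With the loess correction 12 rose and 0 fell in siControl, and 9 rose and 0 fell in siAPC. Slc25a10, the mitochondrial dicarboxylate carrier, rose in siAPC by 0.65 (SE 0.09, adjusted p = 5.08e-05) in CB and 0.70 (SE 0.09, adjusted p = 1.54e-05) in Ps. Pcx, which replenishes oxaloacetate from pyruvate, rose by 0.61 (SE 0.16, adjusted p = 0.0157) in CB, a call lost without the 4 GC-trend libraries (0.46), and differed by 0.45 (SE 0.16, adjusted p = 0.0550) in Ps. In siAPC this list had 3 higher and 3 lower genes in CB, against 3 and 6 in Ps. The Ps counts were 5 and 3 with total reads, 2 and 3 under quantile normalization, 3 and 9 with the loess correction and 4 and 6 with the replicate block. Lower genes in CB numbered 3, 4, 6 and 3 in the same order, and with arrayWeights 7 in either fraction.

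Of the 10 pentose phosphate genes, 5 rose and 2 fell in Ps under either siRNA (with total reads 2 and 5 in siControl, and 3 and 5 in siAPC). Prps2, which makes phosphoribosyl pyrophosphate, rose by 0.72 in siControl and 0.81 in siAPC, Rpe (ribulose-phosphate epimerase) by 0.67 in siAPC, the latter at -0.04 with the loess correction. H6pd, the hexose-6-phosphate dehydrogenase of the endoplasmic reticulum, fell by 1.15 and 1.17. In siAPC 1 gene of this list fell in CB and 3 in Ps, with 0 higher, and G6pdx, the entry enzyme, fell by 0.34 in CB and 0.53 in Ps. The genes that fell numbered 3 in CB and 3 in Ps with total reads or quantile normalization. They numbered 4 and 4 with the loess correction or the replicate block, and 6 and 5 with arrayWeights.

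Of 16 listed hypoxia and HIF response genes, 4 rose and 6 fell in Ps of siControl cells and 2 rose and 6 fell in siAPC cells (with total reads 1 and 9, and 2 and 7). With the replicate block 3 rose and 7 fell in siAPC. Vegfa, the secreted vascular growth factor, fell in Ps by 1.22 in siControl and 1.04 in siAPC, and P4ha2, a collagen prolyl hydroxylase, by 1.07 and 0.91. Bnip3l, a mitophagy receptor, rose by 0.92 and 0.99, and Hif1a, the factor itself, by 0.51 and 0.72, where Hif1a did not pass in siControl with total reads (0.22). Between siRNAs 2 genes rose and 1 fell in each fraction on the deposited values. In Ps these counts were 6 and 1 with total reads, 4 and 1 with the replicate block and 4 and 2 with arrayWeights. In CB 3 fell with the loess correction, the block or arrayWeights. The gene that fell on the deposited values was Adm (adrenomedullin), by 0.84 in CB and 0.67 in Ps, while Ndrg1 and Ddit4, stress response genes, rose by 0.59 and 0.66 in Ps. No interaction passed in any of these 6 lists.

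Some members share sequence with near-identical copies, and how reads that fit several places were counted was not given in the sources used here. Of the 50-base words in Gapdh transcripts, 80.1% also occur in 32 listed genes, whose reads amount to 20.7% of those of Gapdh. Eno1 shares 72.2% with 2 other listed genes, 70.5% with the retrogene Eno1b alone, which had 19.0% as many reads as Eno1. Pgk1 shares 67.9% with Pgk1-rs7, and the listed genes that share words with it had 0.165% as many reads. Gpi1 shares 19.4% with 80 listed genes, 18.6% with Gm1840 alone, and those genes had 406% as many reads as Gpi1. Pgam1 shares 41.5% with Pgam1-ps2, and its 2 sharing genes had 0.451% as many reads. Adding the reads of the copy left the siControl Ps difference of Eno1 at 0.18 against 0.19 and that of Ldhb, with its copy Gm5514, at 0.49 against 0.48. Levels of these members are uncertain to that extent. Pfkp overlaps Pitrm1 on the opposite strand over part of its exons, and whether counting used strand was not stated.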

How the data were processed

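Ps and CB RNA of siControl and siAPC NIH/3T3 cells (16 libraries, 4 per group) was sequenced. Per the labels, bcl2fastq 1.8.4, STAR 2.4.2a and limma 3.26.1 were used with mm10, and the study's methods add counting with Rsubread. The deposited values are log2 CPM, made by the authors with limma-voom from gene counts, with 0.5 added and an effective library size. All of the 208240 values (100%) came out as whole reads within 0.1, so the total listed reads (13466225 to 20296087 per library) could be recovered. Effective sizes were 0.801 to 0.995 of the listed reads in Ps and 1.03 to 1.15 in CB. No pair of replicates agreed within sampling noise.

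The whole table (13015 genes) was fitted with limma 3.58.1 (R 4.3.3; lmFit on the 4 groups, eBayes with a trend), with Benjamini-Hochberg adjustment over all genes and a threshold of 0.05. A fold change is on the log2 (reads + 0.5) scale, so values of low genes such as Aldoc can differ from ratios of summed reads. The step was tested on simulated reads of independent libraries, with equal dispersion for all genes and no GC trend. That checks the code and not how well the fit suits these libraries. Medians over compartments carry no test. Lengths, GC content and positions are from GENCODE M21 (GRCm38), which matched 12882 genes, and promoters from RefSeq. Python 3.11.15, pandas 2.3.3 and scipy 1.17.1 made the summaries.

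Members and lists were chosen with earlier results of these data known. Values per library are given for the members with the 3 highest and 3 lowest differences in siControl Ps against CB and in each siRNA comparison, those with the 2 highest and 2 lowest interactions, Gapdh, Mdh1 and Mdh2, and other pathway genes are named when past 1.5-fold, at most 3 per direction, list and comparison. Other genes named were chosen after their values were seen.

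Around the group means, libraries that share a replicate number correlated at 0.416 to 0.617 between siAPC CB and Ps over 10292 genes. Between siControl and siAPC Ps they correlated at 0.162 to 0.551. Libraries with different numbers correlated at -0.592 to 0.572 (mean -0.165) and at -0.484 to 0.347 (mean -0.112) in the same order. The ranges overlap, so pairing by number is not settled. These 2 comparisons were nevertheless taken as paired. The fit has no block, since the study's methods state none, and values with the replicate number as a block are given where they change a member's call in these 2 comparisons. Counts of the neighbour lists that the block changed in them are given with the lists. Libraries that share a number correlated at -0.121 to 0.432 between siControl CB and Ps and at -0.336 to 0.269 between the CB groups. Alternatives were other scalings, voom weights on the recovered reads, arrayWeights, a replicate block, a filter on low values, a loess correction for GC content and length, fits to fewer groups, and leaving out libraries. The deposited table held library columns only, and the authors' own published comparisons were not used.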

Additional observations from a re-analysis of the deposited data

Results flagged for a closer look

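In 6 of 142 groups of 4 libraries, 1 library lay far from the other three, and chance alone sets 1 in 20 groups apart. Levels are log2 CPM. Aldoa was at 10.41 in siAPC Ps replicate 2 against 10.54 to 10.55 in the rest of the group, Gapdh at 11.91 in the same library against 12.22 to 12.29, and Ogdh at 7.03 against 7.14 to 7.15. Dld was at 4.97 in siControl CB replicate 3 against 4.21 to 4.27, and Suclg1 at 6.90 in that library against 7.11 to 7.13. These 5 values belong to libraries whose values fall with GC content. Mdh1 was at 7.77 in siAPC Ps replicate 4, which has no such trend, against 7.64 to 7.66.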

How the results depend on the processing

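Of 64 called member results, 26 kept direction and call under every alternative, and over their 1599 alternative values 1503 kept both, 76 lost the call and 20 changed sign. The interaction gave 0 called members under every alternative. Where values moved, the cause was not tested beyond the values given here.

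For Ps against CB, scaling to total reads gave 12 members higher and 8 lower under either siRNA. Lower calls numbered 6 under quantile normalization under either siRNA, 1 in siControl with arrayWeights and 1 with the 4 GC-trend libraries left out, and 0 in siAPC with the loess correction. A change above 1.5-fold left 7 higher in siControl, and 4 higher and 0 lower in siAPC. The cytosolic minus mitochondrial gap was 0.057 in siControl with the loess correction. In siAPC it was 0.072 with that correction, -0.46 under quantile normalization, -0.20 with genes of a mean log2 value of at least 1, -0.26 without Ldha and Ldhb and -0.079 with Mdh1 among the cytosolic members.

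For siAPC against siControl in CB, lower calls numbered 5 with total reads, with quantile normalization and with voom weights, 14 with arrayWeights, 8 with the GC-trend libraries left out, 12 with the loess correction and 0 above 1.5-fold, and higher calls 2 in a fit to both CB groups only. Up to the loess correction, the shares of all genes called lower were 5.12%, 6.53%, 6.92%, 15%, 8.51% and 12.4% in the same order. The fit to both CB groups called 8.24% of all genes higher. In Ps, higher calls numbered 5 with total reads, 1 with arrayWeights, 1 with genes of a mean log2 value of at least 1, 0 with the GC-trend libraries left out and 1 in a fit to both Ps groups only, and lower calls 7 with total reads and 0 above 1.5-fold. The shares of all genes called higher in Ps were 22.6%, 14%, 10.9%, 11.7% and 8.77% in the order of the Ps settings.

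Leaving out 1 library at a time gave 22 to 23 higher and 0 to 1 lower members for siControl Ps against CB, with a gap of -0.29 to -0.13. It gave 16 to 21 higher and 2 to 4 lower for siAPC, with a gap of -0.16 to -0.10. Between siRNAs it gave 0 to 2 higher and 2 to 7 lower in CB, and 1 to 2 higher and 10 to 15 lower in Ps. The shares of all genes called moved as well. For siControl Ps against CB they ran from 26.9 to 30.7% higher and 29.0 to 31.7% lower. For siAPC they ran from 27.2 to 31.4% and 28.7 to 31.8%. Between siRNAs they ran from 5.62 to 7.92% higher and 3.28 to 7.69% lower in CB. In Ps they ran from 9.11 to 11.9% and 9.08 to 13.3%. With a replicate block, 6 members were lower in siAPC CB in place of 3, a comparison in which pairing by number was not shown, and 23 were higher in siControl Ps. No other count over all 33 members moved by more than 1.5 times with the block. Among the neighbour lists, it gave 4 higher hypoxia and HIF response genes in siAPC Ps against siControl Ps in place of 2. In siAPC CB it gave 3 lower hypoxia genes and 4 lower pentose phosphate genes, each in place of 1. The remaining TCA list and the glycolytic isozymes and regulators each had 2 lower genes there in place of 1. For siAPC Ps against CB, 2 glycolytic isozymes or regulators were higher in place of 1.

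Members that changed sign and passed the test under at least 1 of the settings compared were, in siControl Ps against CB with the loess correction, Hk1 (0.43), Pfkl (0.43), Pfkm (0.32), Pfkp (0.15), Pdhb (-0.053) and Ogdh (0.20), under quantile normalization Aldoa (-0.38), Tpi1 (-0.057), Gapdh (-0.23), Eno1 (-0.56), Pkm (-0.82) and Ldha (-0.00022), and with total reads Tpi1 (-0.030), Pgam1 (-0.23), Pkm (-0.24), Ldha (-0.0084), Pdk1 (-0.074), Pdhb (-0.0065), Dlat (-0.079), Idh3g (-0.053) and Dlst (-0.24). In siAPC Ps against CB they were, with the loess correction, Hk1 (0.34), Pfkl (0.34), Pfkm (0.21), Pkm (0.28), Pdhb (-0.067), Idh3g (-0.021), Ogdh (0.078) and Dlst (0.17), and under quantile normalization Gpi1 (-0.089), Aldoa (-0.38), Tpi1 (-0.11), Gapdh (-0.29), Eno1 (-0.58) and Ldha (-0.10). Depth limits Aldoc, with 117 reads in 16 libraries.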
